A study of Mus musculus with 12 samples.

Results

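The proteasome genes were followed in oocytes of WT and *Alkbh5*−/− (KO) mice at 3 stages of meiotic maturation. The members are all genes of the count table whose symbol is Psm, a letter from a to g and a number, with a letter at the end where there is one. There were 49 of them among 56691 genes, of which 52073 carried a symbol. They comprise the 14 constitutive genes of the core particle, 17 genes of the regulatory particle, 5 tissue-specific or inducible core subunits, 6 activators or inhibitors and 7 assembly chaperones. The comparison of core with regulatory particle below uses the first 2 of these groups.

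The 26S proteasome is the protease that takes apart proteins marked with ubiquitin, and the exit from meiotic metaphase depends on it, because cyclin B and securin are removed that way. Its core particle is a barrel of stacked rings, in which the alpha subunits (*Psma* genes) form the gates and the beta subunits (*Psmb* genes) the chamber. PSMB5, PSMB6 and PSMB7 carry the active sites. The regulatory particle caps the barrel. Its base holds a ring of ATPases (*Psmc* genes) that unfold the substrate, and its lid, made of non-ATPase subunits (*Psmd* genes), holds the deubiquitinase PSMD14.

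The groups were WT and KO at the germinal vesicle (GV) stage, at germinal vesicle breakdown (GVBD) and at metaphase II (MII), with 2 libraries each and 12 in all. By the study's methods the KO is a whole-body CRISPR deletion at the first exon of *Alkbh5*, which encodes an RNA m6A demethylase, on a C57BL/6 background. Oocytes of hormone-primed young females were matured in culture, pooled and lysed, with ERCC spike-in RNA added to each pool. By its account KO oocytes mostly arrested before GVBD and rarely extruded a polar body. Its text was not found to say if the KO pools were sorted for stage, so genotype and stage cannot be told apart in the KO GVBD and KO MII libraries.

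Libraries held between 28.6 and 40.2 times 1e6 counts, of which 221927 to 838409 fell on ERCC sequences. Values below are spike-in scaled counts, the counts multiplied by the mean ERCC total over that of the library, unless another unit is named. In such bulk samples, fewer oocytes in a pool and less RNA per oocyte cannot be told apart. *Alkbh5* was between 3020 and 13653 in the WT libraries and between 51 and 260 in the KO libraries. All 8 oocyte markers were detected in every library, and summed to between 10339 and 18247 counts, scaled to a library of 1e6 endogenous counts. The 10 granulosa and cumulus markers summed to between 24.3 and 74.3, with the highest sum in the second KO MII library. *Cyp19a1* held most of the sum in every library, with 577 to 2225 raw counts. *Fshr* was above 0 and *Amhr2* at 0 in all libraries. The KO MII libraries stood apart from each other. The first was above the second by a median log2 ratio of 1.27 over the 43 members with at least 10 counts in every library, and by 1.11 over the 12799 genes of the whole table with such counts. The same medians in WT MII were 0.69 and 0.69.

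At the GV stage the core genes were present at higher and more even levels than those of the regulatory particle. Levels between genes are compared here as spike-in scaled counts per kilobase of annotated exon. In WT GV oocytes the core genes had a median level of 6057 per kilobase, from 1764 ± 228 (SD, n = 2) for *Psma3* to 21839 ± 973 (SD, n = 2) for *Psma2*. This was a range of 12.4-fold. The regulatory particle genes had a median level of 762 per kilobase, from 37.1 ± 2.64 (SD, n = 2) for the lid subunit *Psmd3* to 12292 ± 394 (SD, n = 2) for the ATPase *Psmc5*, a range of 332-fold. With the longest annotated transcript as length the ranges were 11.4-fold and 193-fold. *Psma2* was the highest member at every stage and took between 0.194% and 0.568% of the endogenous counts of a library. All 49 members together took between 0.808% and 1.21%.

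The distance between both particles can be read without any scaling of libraries, as the median log2 level of the core genes minus that of the regulatory genes in each library. The WT libraries had 3.07 and 2.89 at GV, then 2.26 and 2.37 at GVBD, then 2.66 and 2.63 at MII. The KO libraries had 2.71 and 2.51, then 2.32 and 2.68, then 2.46 and 2.62. WT GV was thus highest and WT GVBD lay below WT MII. Without the 2 members of lowest mean count in each particle, WT MII held the highest library, at 3.11, and KO MII the lowest values, at 2.20 and 2.07, so the order of the groups rests on which members are counted.

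What changed more was the evenness within the core. The SD of the log2 levels over the 14 core genes started at 1.07 and 1.09 in WT GV, reached 1.20 and 1.30 at GVBD, and stood at 2.42 in either library at MII. The 4 KO libraries of the GV and GVBD stages had between 0.96 and 1.06, and those of MII had 1.73 and 2.07. Over the 17 regulatory genes the SD stayed between 1.82 and 2.24 in all 12 libraries. The SD of the core was therefore higher in all 4 MII libraries than in any earlier one. The catalytic genes took part in this, as did non-catalytic ones such as *Psmb4* and *Psmb1*, 21.8-fold and 15.8-fold lower at WT MII than at WT GV. The median log2 level of the catalytic genes minus that of the other core genes, a measure added after the values were seen, was 0.34 in either WT GV library. It was 0.03 and −0.23 at WT GVBD, and −2.95 and −3.12 at WT MII. The KO libraries had 0.20 and 0.32 at GV, then 0.48 and 0.21 at GVBD, but −0.88 and 0.04 at MII. Neither KO MII library thus reached the WT MII values. With so few catalytic genes, the measure rests on the middle one in each library. These are descriptions of each library and were not tested.

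**Figure D1:**
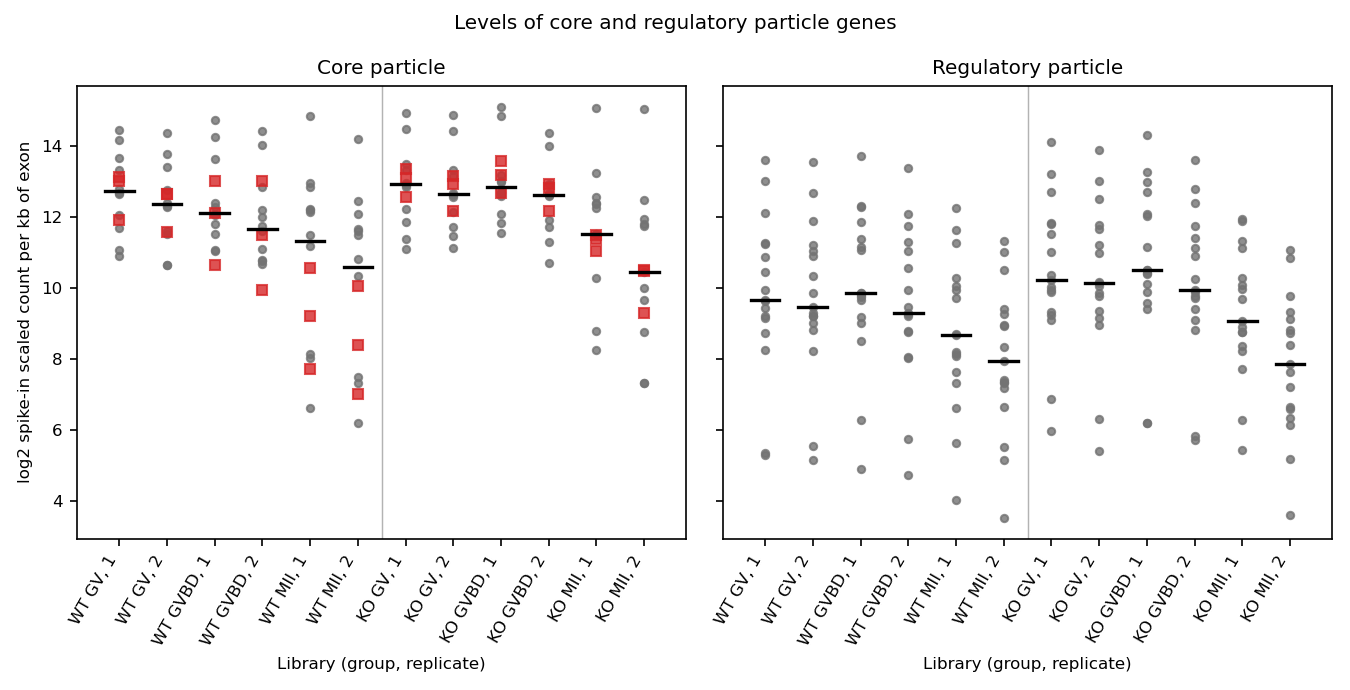
Levels of the 14 core genes (left) and 17 regulatory particle genes (right) in each of the 12 libraries, as log2 spike-in scaled counts per kilobase of exon. Each point is a gene, red squares are the catalytic *Psmb5*, *Psmb6* and *Psmb7*, and black lines are medians. In WT MII the core genes spread out, with an SD of 2.42 in both libraries against 1.07 and 1.09 in WT GV.

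To ask which proteasome mRNAs decline during normal maturation, MII was compared with GV in WT oocytes. Calls are genes with a Benjamini-Hochberg adjusted p under 0.05 in edgeR's quasi-likelihood test over all tested genes and a change of at least 2-fold. Of the 48 members tested, 23 were called lower and none higher, while 30.5% of all 18816 tested genes were called lower and 0.393% higher. The core lost 7 of 14 members and the regulatory particle 7 of 17. The median log2 fold change was −1.69 over the core and −1.13 over the regulatory particle, beside −1.06 over all tested genes. When libraries were scaled to the endogenous genes by TMM instead, these medians became −0.85, −0.28 and −0.22, since the loss of RNA per spike-in is then removed, and 20 members were called lower and 4 higher, the latter being *Psma2*, *Psmd1*, *Psmd3* and *Psmd11*. Under that scaling 17.0% of all genes were called lower and 7.06% higher, so the members called higher were near the share over all genes. The calls of *Psme3* (−0.45, adjusted p = 0.193, edgeR), *Psmd8* (−0.74, adjusted p = 0.0524, edgeR) and *Psmd5* (−0.93, under the 2-fold minimum) were lost with TMM scaling. The number of members called fell without the first WT GV library, as it did over all genes. It rose without the first WT MII library, where the number over all genes fell.

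Within both particles, the beta ring, which forms the proteolytic chamber, contained the 3 lowest fold changes. Of its 7 members 5 were called lower, beside 30.5% of all tested genes, and among them were the 3 catalytic subunits. *Psmb7*, which carries the trypsin-like site, had 28581 and 22077 in WT at GV, then 28728 and 28518 at GVBD, and finally 726 and 441 at MII. It kept its level through GVBD and fell by 5.44 on the log2 scale (SE 0.55, adjusted p = 2.51e-20, edgeR), or 43.4-fold. *Psmb4*, a structural beta subunit, was at 4185 and 3126, then 4255 and 3445, then 191 and 144, and was 21.8-fold lower at MII than at GV (adjusted p = 1.68e-13, edgeR). *Psmb1* had 19856 and 13497 at GV and 1290 and 824 at MII, 15.8-fold lower. From GV to GVBD its log2 fold change in WT was −0.44 (SE 0.44), which did not pass the test.

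The other catalytic subunits had already lower values at GVBD. *Psmb5*, the chymotrypsin-like subunit, had 3485 and 2734 in WT at GV, then 1444 and 881 at GVBD, and finally 530 and 301 at MII. *Psmb6*, the caspase-like subunit, was at 16718 and 12044, then 8348 and 5466, then 2858 and 2013. The groups did not overlap at any step for either gene. From GV to MII the log2 fold changes were −2.90 (SE 0.52) and −2.56 (SE 0.49), with adjusted p = 4.63e-07 and 2.31e-06 by edgeR. The steps from GV to GVBD, −1.42 (SE 0.41) and −1.06 (SE 0.39), did not pass the test. Reads of *Psmb5* may be shared with a pseudogene copy that is 98.9% identical over its coding sequence.

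Beside these, *Psmb2* and *Psmb3* did not pass the test, at −0.82 (SE 0.46) and −0.54 (SE 0.45). *Psmb3* had 23547 and 16107 in WT at GV, then 6739 and 5039 at GVBD, and finally 17100 and 10124 at MII. Its WT GVBD libraries were thus the lowest in WT, while the KO GVBD libraries had 19041 and 14675.

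The alpha ring had fewer members called, 2 of 7, which is near the 30.5% over all tested genes. *Psma3* and *Psma6* were called lower, by 8.30-fold and 6.93-fold, and the other 5 members were not. *Psma2* had 82741 and 77687 in WT at GV, then 99988 and 80836 at GVBD, and finally 109509 and 70045 at MII, with a log2 fold change of 0.16 (SE 0.41) from GV to MII. *Psma7* had 19702 and 15587 at GV, then 16681 and 12621 at GVBD, then 14412 and 9906 at MII, with a log2 fold change of −0.54 (SE 0.45). Both are the core members with the highest values in this comparison. The alpha ring had a median log2 fold change of −0.66, which turns to 0.19 with TMM scaling, and the beta ring one of −2.90, or −2.08 with TMM scaling. In KO the rings lay closer together from GV to MII, with medians of −1.21 and −1.69, beside −1.17 over all genes.

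The calls in the regulatory particle also differed by part, in small classes, beside 30.5% of all tested genes called lower. Of the 6 ATPases, *Psmc2*, *Psmc3*, *Psmc4* and *Psmc5* were called lower, with a class median of −2.42. *Psmc4* had 5361 and 4586 in WT at GV, then 4691 and 3298 at GVBD, and finally 614 and 368 at MII, 10.1-fold lower than at GV (adjusted p = 4.32e-09, edgeR). *Psmc1* and *Psmc6* did not pass, at −0.64 (SE 0.47) and −1.13 (SE 0.48). None of the 3 non-ATPase base subunits passed the test, which are the scaffolds *Psmd1* and *Psmd2* and the ubiquitin receptor *Psmd4*. *Psmd1* was at 5773 and 4329, then 4220 and 4457, then 8994 and 3553, so its WT MII libraries lay on both sides of the GV values.

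In the lid, 3 of 8 members were called lower, near the 30.5% over all tested genes, namely *Psmd6*, *Psmd8* and the deubiquitinase *Psmd14*. *Psmd6* went from 1599 and 1650 in WT GV and 2264 and 1212 in WT GVBD to 276 and 128 in WT MII, 8.06-fold lower than at GV (adjusted p = 4.47e-07, edgeR). *Psmd11*, a lid subunit also known as RPN6, was at 1938 and 1909, then 2313 and 1711, then 2690 and 2073. Its log2 fold change of 0.31 (SE 0.48) and that of *Psmd1*, 0.31 (SE 0.47), were the highest of the particle. The lid subunits *Psmd3* and *Psmd13* were barely present at any stage, with at most 383 and 399.

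Of the subunits counted outside the symbol rule, *Adrm1*, the ubiquitin receptor also known as RPN13, fell by 2.62 on the log2 scale (SE 0.56, adjusted p = 3.19e-05, edgeR), and *Sem1*, a small lid subunit, had −1.04 (SE 0.48) and did not pass.

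Assembly factors and regulators fell in part. Of the 4 core chaperones, *Psmg3* and *Psmg4* were called lower. *Psmg4* had 390 and 379 in WT GV and 6 and 6 in WT MII, from 8 and 12 counts, and had the lowest fitted log2 fold change of all members tested, −5.97 (SE 0.76). Of the regulatory particle chaperones, *Psmd5* and *Psmd10* were called lower and *Psmd9* was not. *Psmf1*, which encodes the proteasome inhibitor PI31, had 7384 and 5952 in WT at GV, then 4109 and 3444 at GVBD, and finally 301 and 268 at MII, a fall of 23.4-fold (adjusted p = 1.23e-14, edgeR).

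The activator genes differed among themselves. *Psme3*, the nuclear activator PA28 gamma, was at 1071 and 1460, then 2592 and 1044, then 696 and 363 in WT, and was called lower at MII by 2.39-fold, a call that TMM scaling did not give. *Psme4*, which encodes PA200, was at 2975 and 3905, then 7347 and 2457, then 3759 and 2593, with a log2 fold change of −0.12 (SE 0.47). *Psme2* had 1599 and 1137 in WT at GV, then 4573 and 1325 at GVBD, and finally 281 and 103 at MII. *Psme2b* had 903 and 1307, 2109 and 1033, and 294 and 88 in the same libraries. Both were called lower, but their coding sequences are 99.3% identical and reads between them could not be assigned with certainty.

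**Figure D2:**
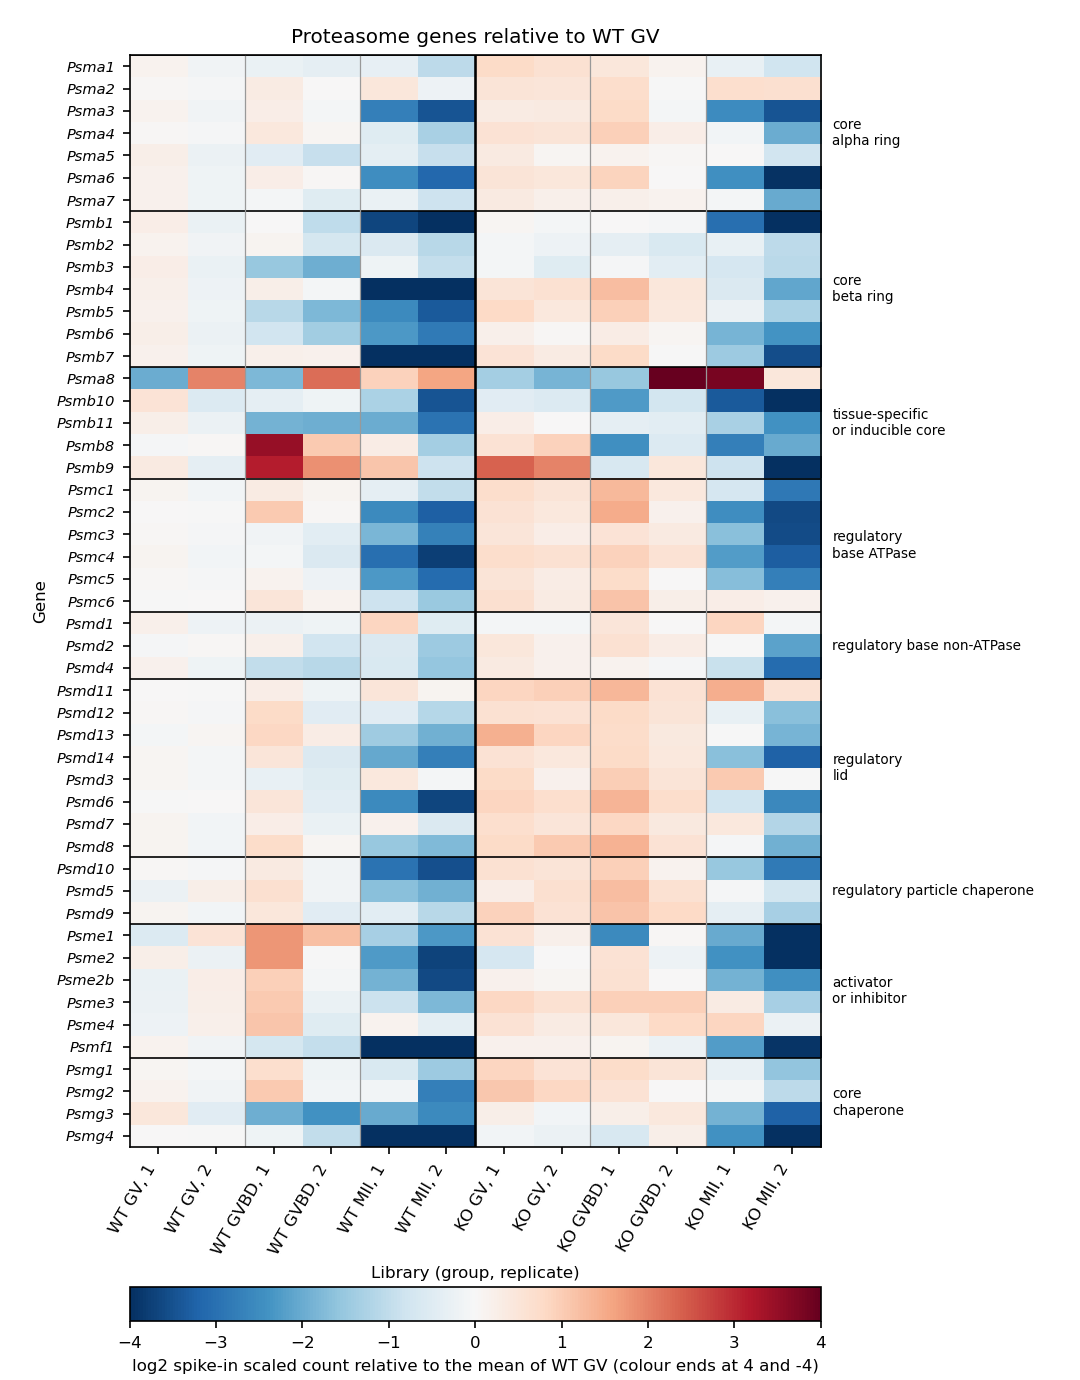
All 49 proteasome genes (rows, grouped by role) in the 12 libraries (columns), as log2 spike-in scaled counts relative to the mean of the WT GV libraries. Blue is lower and red higher, and colours end at 4 and −4. The MII columns of both genotypes hold most of the dark blue cells, while *Psma2*, *Psmd1* and *Psmd11* stay pale or red there.

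The 3′ UTRs of the particle genes were then searched for the cytoplasmic polyadenylation element, a sequence bound by CPEB proteins through which stored mRNAs gain poly(A) during oocyte maturation. The motifs were TTTTAT and TTTTAAT, read on the transcript strand of the principal transcript of each gene in GENCODE M21 (GRCm38). This grouping was made after the values had been seen. An element stood in 11 of the 31 core and regulatory particle genes. The core members *Psma1*, *Psma5*, *Psmb1* and *Psmb3* hold one within 100 bases of the annotated 3′ end, and these 4 windows are shown because that is where the tail is added. They lie at chr7:114264659-114264688 (minus strand), chr3:108279910-108279939 (plus strand), chr17:15475029-15475058 (minus strand) and chr11:97713465-97713494 (plus strand), in that order, and read 5′ to 3′ with the element in capitals.
Psma1: ctataccaatgtTTTTATatgaagaaaata
Psma5: gtgtgtgtgtttTTTTATgaagtctgtaca
Psmb1: gtttttgcttttTTTTAATaaacttctgtt
Psmb3: ttttgtttttctTTTTAATaaaattgcctt

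In the windows of *Psmb1* and *Psmb3* the TTTTAAT match overlaps the polyadenylation signal AATAAA. Of the 11 genes with an element, 2 were called lower at WT MII against GV (18.2%), *Psma3* and *Psmb1*, and their median log2 fold change was −0.66. Of the 20 without one, 12 were called lower (60.0%), with a median of −2.28, and *Psmb4*, *Psmb5*, *Psmb6* and *Psmb7* were all among them. The same direction held over all 13696 coding genes tested, where 59.4% had an element: 20.4% of genes with it and 40.9% of genes without it were called lower. The groups also differed in 3′ UTR length, with medians of 503 and 124 bases among the particle genes and of 1614 and 388 bases among all coding genes. Among all coding genes with a 3′ UTR under 500 bases, 23.7% with and 46.2% without an element were called lower, and among longer ones 19.9% and 33.4%. The part of UTR length in the difference among the particle genes was not tested. A match is a description of the letters only, and libraries primed on poly(A) cannot tell a longer tail from more RNA.

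**Figure D3:**
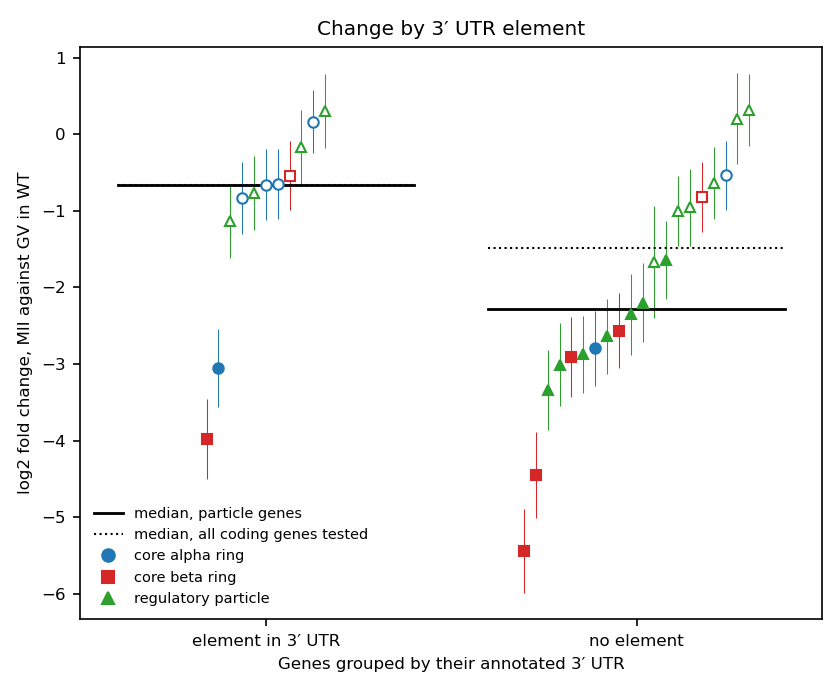
Log2 fold change of WT MII against WT GV (edgeR, spike-in scale) for the core and regulatory particle genes, with and without a TTTTAT or TTTTAAT match in the annotated 3′ UTR. Each point is a gene with its SE, filled where called, blue circles for the alpha ring, red squares for the beta ring and green triangles for the regulatory particle, and lines are medians of the particle genes (solid) and of all coding genes tested (dotted). The 11 genes with a match have a median of −0.66 and the 20 without one of −2.28.

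Between GV and GVBD no member passed the test in either genotype. In WT, 0 of 48 members were called by edgeR, 9 had an unadjusted p under 0.05 (3 higher and 6 lower), and DESeq2 called 4, *Psmb3*, *Psmb5*, *Psmb8* and *Psmg3*. Of all 19566 genes tested there, 0.0409% were called higher and 0.0102% lower by edgeR. An unadjusted p under 0.05 was reached by 1223 of them in edgeR, and DESeq2 called 383. In KO, 0 of 48 members were called by edgeR, beside 0.0367% of all genes called higher and 0.184% lower. There 1 member had an unadjusted p under 0.05 in edgeR, beside 1459 of all 19064 genes. DESeq2 called 0 members, beside 232 of all genes. *Psmg3*, a chaperone of core assembly, had the lowest fitted value in WT, −2.25 (SE 0.52) on the log2 scale.

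The step from GVBD to MII was compared next. In WT, 22 of 49 members were called lower and none higher from GVBD to MII, beside 27.1% of all genes lower and 0.682% higher. DESeq2 called 26 members, beside 5449 of all 19211 genes. Median log2 fold changes were −1.28 over the core, −1.46 over the regulatory particle and −1.11 over all genes. The order of the particles was thus the reverse of that from GV to MII in WT. With TMM scaling, 20 were called lower and 4 higher, beside 15.6% and 9.64% of all genes. Fewer were called without the first WT GVBD library and without the second WT MII library, over members and over all genes alike. *Psmb7* was 49.1-fold lower at MII than at GVBD (adjusted p = 1.38e-11, edgeR), and *Psmb4* was 23.0-fold lower (adjusted p = 1.22e-07, edgeR). *Psmb5* did not pass this step, at −1.48 (SE 0.69), and *Psmb3* had 1.21 (SE 0.63). These values share their MII libraries with those against GV.

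The same stage comparison was made in KO oocytes. From GV to MII, 7 of 48 members were called lower and none higher, beside 3.28% of all genes lower and 0.00533% higher: *Psma3*, *Psma6*, *Psmb1*, *Psmc2*, *Psmc4*, *Psmc5* and *Psmf1*. All 7 were also called in WT. Median log2 fold changes were −1.30 over the core, −1.84 over the regulatory particle and −1.17 over all genes. The count turned on single libraries. It fell without either KO GV library and rose without either KO MII library, as did the number over all genes. DESeq2 called 20 members, beside 3068 of all 18777 genes.

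*Psmb1*, a structural beta subunit, was at 17211 and 15503 in KO GV and 2025 and 742 in KO MII, and fell by 3.56 on the log2 scale (SE 0.67, adjusted p = 0.0347, edgeR). *Psmc4* had 7985 and 7639 in KO at GV, then 9399 and 7468 at GVBD, then 1043 and 501 at MII, 10.1-fold lower (adjusted p = 0.0366, edgeR), which is the fold seen in WT. *Psmf1* was at 7490 and 7392 in KO GV and 1415 and 437 in KO MII, 8.04-fold lower, beside 23.4-fold in WT. For these 3 genes all KO MII values lay below all KO GV values.

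The other particle members with extreme changes in WT were read in KO as well. *Psma2* had 115448 and 111108 at GV, then 130852 and 78641 at GVBD, then 127245 and 125380 at MII. *Psma7* had 22698 and 20282, then 20390 and 19310, then 16446 and 4304, so only its second KO MII library was low. *Psmd1* had 4714 and 4728, then 6929 and 4998, then 9110 and 4715. *Psmd11* had 3505 and 3683, then 4871 and 2865, then 5320 and 2878. *Psma2*, *Psmd1* and *Psmd11* thus had overlapping GV and MII values or MII values above those of GV. *Psmd6* had 2948 and 2613, then 4126 and 2638, then 933 and 273, with all MII values below those of GV.

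From GVBD to MII in KO, 13 of 47 members were called lower and none higher, beside 7.12% of all genes lower and 0.0779% higher. The count fell without either KO GVBD library or the second KO MII library. It rose without the first KO MII library, and the number over all genes moved the same way. DESeq2 called 19 members, beside 2261 of all 17966 genes. Median log2 fold changes were −1.40 over the core, −1.66 over the regulatory particle and −0.88 over all genes.

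Side by side, 22 of the 23 members called lower in WT were at least 2-fold lower in KO MII than in KO GV, and 17 of the 23 had a smaller fitted fall in KO. These 23 were chosen by their fall in WT, which favours a smaller value in the other genotype. Over the 49 members the fitted difference between the genotypes in this change was above 0 for 23 and below 0 for 26. The median log2 fold change over all members tested was −1.86 in KO and −1.66 in WT, beside −1.17 and −1.06 over all genes tested. Across the 48 members tested in both, Pearson's r between the fold changes was 0.601, and 0.786 over the 31 particle genes. These are descriptions across genes from different libraries that share the dependence of level on the scaling of each library. The same counts and r over all genes are not given here, so they cannot be read as particular to the proteasome genes. *Psmb7* was at 36287 and 31650 in KO GV, 42273 and 24880 in KO GVBD and 9166 and 2156 in KO MII, with a log2 fold change of −2.59 (SE 0.70, adjusted p = 0.0647, edgeR) from GV to MII. *Psmb4* was at 5180 and 5487, then 8531 and 4920, then 2443 and 855, with −1.69 (SE 0.66). For both genes the first KO MII library was well above the second.

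**Figure D4:**
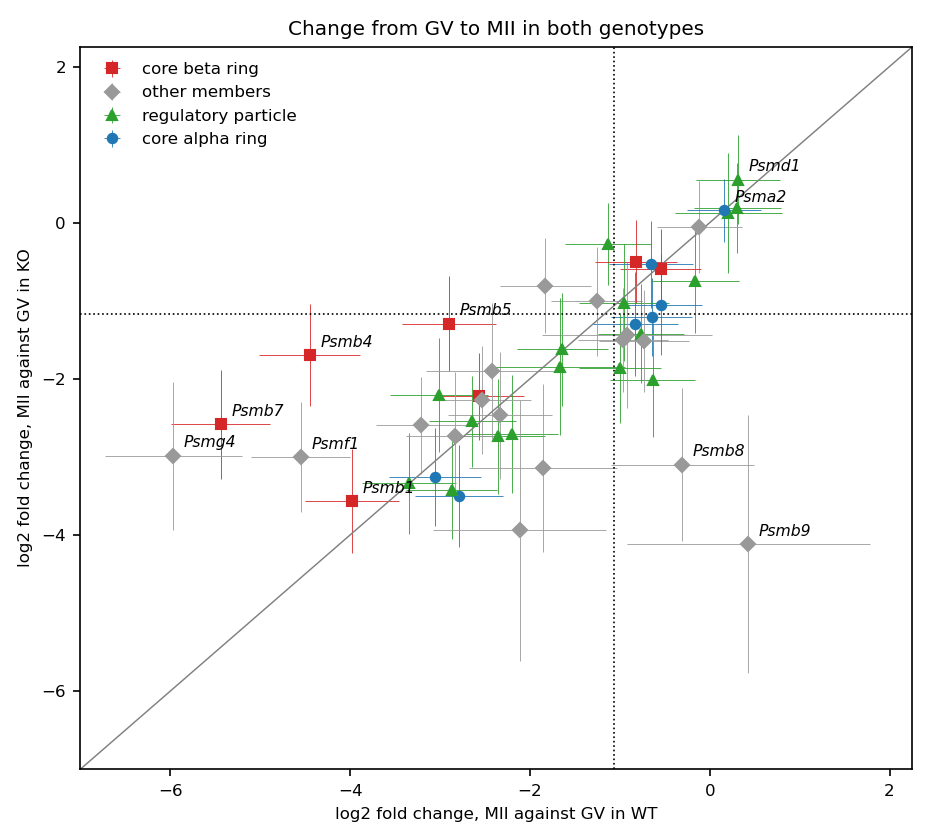
Log2 fold change of MII against GV in WT (horizontal axis) and in KO (vertical axis) for the 48 proteasome genes tested in both, from edgeR on the spike-in scale. Bars are SE, the solid line marks equal change, dotted lines are the medians of all genes tested, and colours mark the alpha ring (blue), beta ring (red), regulatory particle (green) and other members (grey). *Psmb7* lies at −5.44 and −2.59.

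To ask what loss of *Alkbh5* changed at each stage, KO was compared with WT. *Alkbh5* itself had log2 fold changes of −5.41, −6.43 and −5.89 at GV, GVBD and MII.

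At GV no member was called by edgeR, with 0 of 48, while 23 had an unadjusted p under 0.05, all higher in KO, and DESeq2 called 0. Of all 19452 genes, 0.0565% were called higher and 0.0411% lower by edgeR. An unadjusted p under 0.05 was reached by 3475 of them in edgeR, and DESeq2 called 666. The median log2 fold change was 0.48 over the members and 0.36 over all genes tested, a difference of 0.12. Both KO libraries lay above both WT libraries for 34 of 48 members (70.8%), beside 42.2% of all genes, and below for 1 member, beside 9.69%. As a share of the endogenous counts, a scale added after the values were seen, 28 members lay above (58.3%), beside 30.6% of all genes, and 5 below, beside 17.4%. *Psmd11*, for example, had 1938 and 1909 in WT against 3505 and 3683 in KO. Reads of *Psmd11* may be shared with a copy that is 97.9% identical over its coding sequence.

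At GVBD, 2 of 49 members were called higher in KO and 1 lower, beside 0.807% of all genes higher and 1.73% lower. *Psmb5* was at 1444 and 881 in WT and 5964 and 4166 in KO, a log2 fold change of 2.12 (SE 0.54, adjusted p = 0.0377, edgeR). *Psmg3* was at 133 and 97 in WT and 610 and 694 in KO, a log2 fold change of 2.51 (SE 0.60, adjusted p = 0.0254, edgeR). *Psmg3* had 705 and 384 in WT GV and 606 and 478 in KO GV, so only the WT GVBD libraries were low before MII, where it had 128 and 89 in WT and 141 and 55 in KO. The KO GVBD values of *Psmb5* lay above both WT GV values and close to those of KO GV, 5418 and 4151. Those WT GVBD libraries are also the ones compared with WT GV above, so the comparisons share them. The called member that was lower, *Psmb8*, is described with the inducible subunits below. All 3 calls were lost with TMM or median-of-ratios scaling and when all 12 libraries were fitted in 1 model, and no member was called without either WT GVBD library.

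Both KO GVBD libraries lay above both WT libraries for 21 of 49 members (42.9%), beside 30.3% of all genes, and below for 4, beside 17.9% of all genes. Those 4 are *Psmb8*, *Psmb9*, *Psmb10* and *Psme1*. As a share of the endogenous counts, 22 members lay above and 8 below, beside 25.9% and 26.5% of all genes.

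At MII, 2 of 49 members were called higher in KO and none lower, beside 0.501% of all genes higher and 0.302% lower. They are *Psmb7* and *Psmb4*. Their falls from GV to MII in WT rest on the same WT MII libraries, so the comparisons share them. *Psmb7* had 726 and 441 in the WT libraries against 9166 and 2156 in those of KO, 9.70-fold higher (log2 fold change 3.28, SE 0.85, adjusted p = 0.0213, edgeR). *Psmb4* had 191 and 144 in WT, compared with 2443 and 855 in KO, 9.84-fold higher (log2 fold change 3.30, SE 0.92, adjusted p = 0.0459, edgeR). *Psmb5* had 530 and 301 in WT against 2610 and 1292, and a log2 fold change of 2.23 (SE 0.87) that edgeR did not call and DESeq2 did. All KO values of the 3 genes lay above the WT values.

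The 2 calls at MII rested on the libraries and the scaling. No member was called without the first WT MII library, with *Psmb7* at 3.68 and *Psmb4* at 3.52, or without the second, with 2.96 and 3.11. None was called without the first KO MII library either, with 1.89 and 2.35. TMM scaling called only *Psmb4*, and median-of-ratios scaling none. Both KO MII libraries lay above both WT MII libraries for 10 of 49 members (20.4%), beside 22.1% of all genes, and below for 2, beside 10.3%. As a share of the endogenous counts, 13 members lay above and 13 below, beside 25.6% and 25.5% of all genes. The median log2 fold change was 0.25 over the core, 0.23 over the regulatory particle and 0.30 over all genes. For the catalytic *Psmb6* the genotypes overlapped, with 2858 and 2013 in WT and 3946 and 2723 in KO. Its earlier KO values were 16455 and 14762 at GV, then 17374 and 14817 at GVBD.

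The difference between genotypes in the change from GV to MII was tested directly as an interaction. It called 0 of 49 members by edgeR, as it did 0.0% of all genes. An unadjusted p under 0.05 in edgeR was reached by 5 members, beside 1197 of all 20807 genes. DESeq2 called 1 member, *Psmb4*, beside 154 of all genes. *Psmb7* had an interaction of 2.85 (SE 0.85, adjusted p = 0.522, edgeR) and *Psmb4* one of 2.75 (SE 0.76, adjusted p = 0.512, edgeR). A smaller fall of these genes in KO was therefore not established by that test. Without the second KO MII library some members were called, as were some of all genes. The median interaction was 0.06 over the core and −0.12 over the regulatory particle.

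Over all stages, with stage as a term, 1 of 49 members was called higher and none lower, beside 0.9% of all genes higher and 0.364% lower. It is *Psmb5*, the chymotrypsin-like subunit, with a log2 fold change of 1.67 (SE 0.33, adjusted p = 0.0301, edgeR). Its KO values were above its WT values at each of the 3 stages, the GV ones being 3485 and 2734 in WT and 5418 and 4151 in KO. The call was lost in 7 of 12 fits that left out 1 library, namely the second WT GV library, any WT GVBD or WT MII library, or any KO GVBD library, with log2 fold changes between 1.50 and 1.71.

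**Figure D5:**
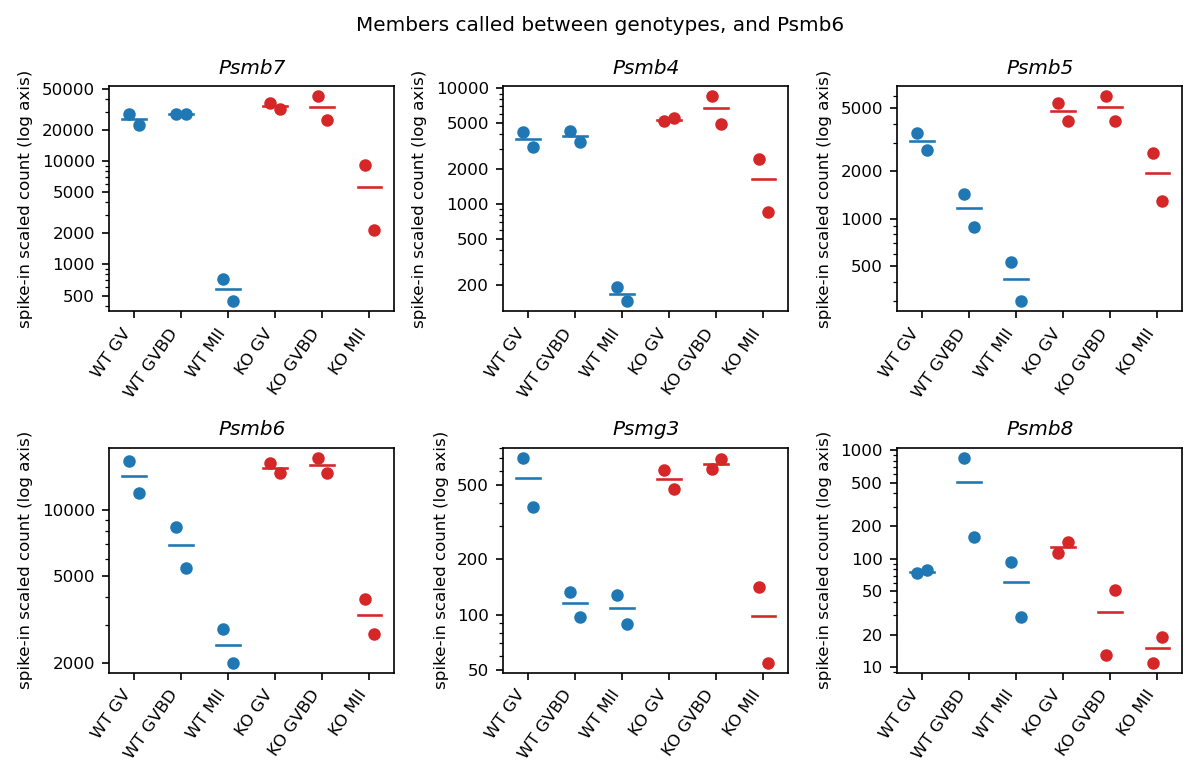
Spike-in scaled counts (logarithmic axis) in all 12 libraries for the 5 members called between genotypes at a stage, *Psmb4*, *Psmb5*, *Psmb7*, *Psmb8* and *Psmg3*, and for the catalytic *Psmb6*. Each point is a library, blue for WT and red for KO, and lines are group means. The MII points of *Psmb7* are 726 and 441 for WT, against 9166 and 2156 for KO.

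The tissue-specific and inducible core subunits were low throughout. PSMB8, PSMB9 and PSMB10 replace the catalytic subunits in the immunoproteasome, which serves antigen processing in immune cells. *Psmb8* had 74 and 78 in WT at GV, then 854 and 159 at GVBD, and finally 93 and 29 at MII. In KO it was at 113 and 144, then 13 and 52, then 11 and 19. At GVBD it was 15.2-fold lower in KO (log2 fold change −3.93, SE 0.82, adjusted p = 0.0107, edgeR). Without the first WT GVBD library the log2 fold change was −2.26 (adjusted p = 0.289, edgeR).

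*Psmb9* was at 14 and 8, then 102 and 41, then 25 and 6 in WT, and at 58 and 46, then 7 and 15, then 6 and 0 in KO. *Psmb10* was at 96 and 45, then 51 and 58, then 27 and 6 in WT, and at 47 and 45, then 13 and 40, then 6 and 0 in KO. *Psme1*, the alpha subunit of the PA28 activator that is induced with them, was at 68 and 147, then 337 and 229, then 39 and 20 in WT, and at 147 and 115, then 16 and 102, then 24 and 6 in KO. None of these 3 genes passed a test between genotypes. Their highest values, *Psmb10* apart, were in WT GVBD.

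The sum of the leukocyte markers was also highest in WT GVBD. In raw counts, both WT GVBD libraries were above all others for *Ptprc*, *Cd52* and *Coro1a*, but not for *Lyz2*, *Cd74* and *Laptm5*. *Lyz2* had 1049 and 814 raw counts in WT GVBD and 910 and 1194 in KO GV. The 6 markers, all above 0 in every library, gave a summed share, scaled to 1e6 endogenous counts, of 43.8 and 64.3 in WT at GV, then 207 and 133 at GVBD, then 36.9 and 36.5 at MII. The KO libraries had 77.6 and 63.1, then 10.8 and 22.8, then 19.8 and 14.5. *Cd52* held most of the WT GVBD sum, with 4564 and 2616 raw counts against 670 and 246 in WT GV, while *Laptm5* had 456 and 437 against 332 and 370. *Psmb10* did not share the rise of the sum, with a log2 fold change of −0.37 (SE 0.69) from GV to GVBD in WT. The part of the markers in the values of *Psmb8*, *Psmb9*, *Psmb10* and *Psme1* was not tested.

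*Psmb11*, the thymus-specific beta subunit, had 205 and 151 in WT at GV, then 47 and 45 at GVBD, and finally 44 and 23 at MII, and was called 5.37-fold lower at MII than at GV (adjusted p = 0.00476, edgeR). In KO it was at 213 and 176, then 138 and 131, then 71 and 33. *Psma8*, the alpha subunit of the testis, was at 0 and 8, then 0 and 11, then 4 and 7 in WT, and at 0 and 0, then 0 and 51, then 32 and 3 in KO, and was not tested in the WT comparison of MII with GV.

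The activators and the inhibitor were also followed in KO. *Psme2* was at 854 and 1356, then 2029 and 1159, then 253 and 79. *Psme2b* was at 1225 and 1153, then 1649 and 1088, then 292 and 200. *Psme3* was at 2212 and 1926, then 2409 and 2415, then 1558 and 500. *Psme4* was at 5138 and 4258, then 4706 and 5866, then 6136 and 2911, and *Psmf1* had 7132 and 5662 at GVBD. No activator or inhibitor was called between genotypes at any stage.

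The wider pathway was followed in 31 further genes of proteasome assembly, transcription, ubiquitin supply and shuttling, all of which were tested. From GV to MII in WT, 11 were called lower (35.5%, beside 30.5% of all genes) and none higher. *Ubb*, a polyubiquitin gene, fell by 3.18 on the log2 scale (SE 0.43, adjusted p = 5.63e-12, edgeR). *Pomp*, the chaperone that matures the core particle, fell by 1.62 (SE 0.45, adjusted p = 0.00194, edgeR), and *Zfand2b* had a log2 fold change of −4.16 (SE 0.64). *Nfe2l1*, the transcription factor that drives proteasome genes, had 0.88 (SE 0.49) in that comparison and was called higher from GVBD to MII in WT, at 2.00 (SE 0.68, adjusted p = 0.0149, edgeR). In KO, 3 pathway genes were called lower from GV to MII (9.68%, beside 3.28% of all genes). Between genotypes 1 was called (3.23%, beside 0.807% of all genes), *Zfand2b*, higher in KO at GVBD by 2.46 on the log2 scale (SE 0.59, adjusted p = 0.0260, edgeR). It had 631 and 558 in WT GV, and 240 and 270 in WT GVBD. These are the WT GVBD libraries that the member calls at GVBD share. How this call held under the alternative runs is not given here.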

How the data were processed

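RNA-seq was available for 12 libraries, 2 in each of 6 groups, and groups were taken from the sample labels. The authors deposited raw read counts per gene, and per the labels the processing used cutadapt 1.9, HISAT2 2.0.4 and StringTie 1.3.4d on mm10. Whether counting used strand is not given in the sources used here. The labels describe bulk extraction with oligo-dT selection and the study's methods a low-input amplification with ERCC RNA, which was not settled. Counts hold PCR copies of RNA primed on poly(A), so tail length and RNA amount cannot be told apart. The labels do not say whether libraries came from separate animals, so p-values measure only the spread between these samples.

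Counts were scaled by the summed ERCC counts. Each comparison was fitted on the whole table with edgeR 4.0.16 (R 4.3.3; quasi-likelihood, two-sided, filterByExpr), with Benjamini-Hochberg adjustment over all tested genes, and called at an adjusted p under 0.05 and a log2 fold change of at least 1. SE is the absolute log2 fold change over the square root of the F statistic. Alternatives were DESeq2 1.42.0, scaling by TMM or by median of ratios, leaving ERCC sequences under 10 counts out of the scaling, no low-count filter, 1 model for all 12 libraries, no fold minimum, the replicate number as a block, and each library left out in turn. Log2 levels used a pseudocount of 0.5. The scripts were tested on simulated data. Exon lengths, positions and 3′ UTRs came from GENCODE M21 (GRCm38).

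The members and lists were chosen with earlier results of these data known. Any member could be named. Values in every library were given for the catalytic, inducible and activator genes, for the members with the 2 lowest and 2 highest changes from GV to MII in WT in each particle, and for members called between genotypes. *Psmb1*, *Psmb3*, *Psmg4* and the pathway genes beyond *Adrm1* and *Sem1* were chosen for display after their values were seen.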

Additional observations from a re-analysis of the deposited data

Results flagged for a closer look

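3 members lay on opposite sides of WT at different stages, in both KO libraries each time. How many of all genes did so is not given here. At single stages such separation was common over all genes. At GV 42.2% lay above and 9.69% below, at GVBD 17.9% below, and at MII 22.1% above and 10.3% below. As log2 fold changes of KO over WT, *Psmb8* had 0.77 at GV, −3.93 at GVBD and −2.03 at MII. For *Psmb9* it was 2.18 at GV, −2.65 at GVBD and −2.38 at MII, from at most 102 spike-in scaled counts in any library. For *Psmg4*, a chaperone of core assembly, it was −0.17 (SE 0.29) at GV and 2.82 (SE 1.37) at MII, neither of which passed the test. The difference between GV and MII was tested as an interaction in edgeR and passed for none of them, with −2.80 (adjusted p = 0.781, edgeR) for *Psmb8*, −4.55 (adjusted p = 0.919, edgeR) for *Psmb9* and 2.97 (adjusted p = 0.660, edgeR) for *Psmg4*. The difference between GV and GVBD was not tested.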

How the results depend on the processing

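No called value changed sign under any alternative run, while the medians over the core and the regulatory particle for KO against WT at MII and for the interaction took both signs when single libraries were left out. The comparison of KO with WT at GVBD, with 3 members called, gave 0 with TMM scaling, median-of-ratios scaling, all 12 libraries in 1 model and the replicate block. KO against WT at MII, with 2 called, gave 1 with TMM and 0 with median-of-ratios scaling and the replicate block. GVBD against GV in WT, with 0 called, gave 3 without the low-count filter, 4 with DESeq2 and 1 with the replicate block. For MII against GV in WT the median log2 fold change over the core was −0.85 with TMM and −0.73 with median-of-ratios scaling, and over the regulatory particle −0.28 and −0.16. MII against GVBD in KO, with 13 called, gave 8 with TMM, 8 with median-of-ratios scaling, 20 with all 12 libraries and 21 with the replicate block. MII against GV in KO, with 7 called, gave 11 with median-of-ratios scaling, 17 without the filter, 20 with DESeq2, 22 with all 12 libraries and 21 with the replicate block. The interaction, with 0 called, gave 1 with median-of-ratios scaling, 2 without the filter and 1 with DESeq2. Over all stages, with 1 called, the counts were 5 without the filter, 3 with DESeq2, 2 with all 12 libraries and 2 with the replicate block. In each of these changes of count, the number called over all genes moved the same way. The causes were not tested.

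Leaving out 1 library at a time gave 0 to 0 members for KO against WT at GV, 0 to 2 at GVBD, 0 to 2 at MII and 0 to 2 over all stages. It gave 0 to 1 for GVBD against GV in WT and 0 to 2 in KO, 11 to 22 for MII against GVBD in WT and 0 to 32 in KO, 12 to 32 for MII against GV in WT and 0 to 39 in KO, and 0 to 3 for the interaction. Medians over the core and the regulatory particle ranged from −2.07 to −1.46 and from −1.54 to −0.84 for MII against GV in WT, from −2.42 to −0.93 and from −3.02 to −1.15 in KO, from −0.19 to 0.59 and from −0.41 to 0.85 for KO against WT at MII, and from −0.30 to 0.39 and from −1.22 to 0.36 for the interaction. The lone library of a group was then assumed to vary like the others. The number called over all genes also changed with the library left out.

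Replicate numbers were shared between groups, and same-numbered libraries deviated together with correlations of −0.23 to 0.15. With 2 libraries per group, such correlations cannot tell whether same-numbered libraries share an origin. With the numbers crossed, an alternative chosen after seeing the data, 0 members were called for KO against WT at GV, 0 at MII and 0 for MII against GVBD in KO. With 2 libraries per group, and down to 0 counts for *Psmb9* and *Psmb10*, small differences were not detectable.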

Other observations

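Several members have a near-identical copy, so their counts are uncertain. *Psma3* has a processed pseudogene that is identical over 86.5% of its coding sequence and holds 8016 counts over the 12 libraries. *Psma4* has one that is 96.8% identical with 22935 counts, and *Psma5* has one that is 98.9% identical with 8461 counts. *Psmb3* has copies that are 97.1% identical, with 4756 and 3856 counts, and *Psmd11* has one that is 97.9% identical with 4770 counts. *Gm26938* is identical to *Psmg3* over 59.0% of its coding sequence and overlaps its exons on the same strand. On the opposite strand, exons of *Nek6* overlap 11.8% of the exons of *Psmb7*, over 405 bases, and those of *Gm26745* overlap 25.5% of the exons of *Psmd9*.

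The KO MII libraries differed from each other by unequal amounts for different members. The first was 1.01-fold above the second for *Psma2* and 4.56-fold above it for *Psmc1*, an ATPase of the base.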
